A study of Mus musculus with 12 samples.

Results

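The 10 genes described here encode the NF-κB subunits and the proteins that hold NF-κB in check or modify it: *Nfkb1*, *Nfkb2*, *Rela*, *Relb* and *Rel*, the IκB genes *Nfkbia*, *Nfkbie*, *Nfkbiz* and *Bcl3*, and *Tnfaip3*. They were chosen by gene symbol from the 29737 genes of the count table, and all 10 passed the filter on low counts that left 16761 genes for testing. RNA was sequenced from 12 samples of wild-type mouse bone marrow neutrophils kept in culture for 24 h, with 3 samples in each of 4 groups. The control group received PBS, and the others received the bile acids taurocholic acid (TCA, 200 µM), glycocholic acid (GCA, 200 µM) or tauro-β-muricholic acid (Tβ-MCA). The labels give Tβ-MCA as 10 µM and the methods of the study as 200 µM, so its dose relative to the other bile acids is uncertain. Animal ages were not in the labels. All groups shared the medium, with fetal bovine serum, and the enrichment for Ly6G+ cells with magnetic beads.

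NF-κB is a family of transcription factors that act as dimers of Rel homology proteins. In resting cells the dimers are kept in the cytoplasm by IκB proteins, and signals from Toll-like, interleukin-1 and TNF receptors activate the IKK kinases, which mark IκB for destruction and free the dimers to enter the nucleus. Several IκB genes and *Tnfaip3* are themselves switched on by NF-κB, which gives the pathway its negative feedback, and in neutrophils the pathway is known for driving cytokine production and survival.

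The promoters are shown because the feedback of this family acts through κB sites near its own start sites. The following 4 stretches are the 150 bases before the transcription start of *Nfkbia*, *Rel*, *Nfkbie* and *Tnfaip3* on the strand of the gene, written 5′ to 3′, from RefSeq on GRCm38.p6. Capitals mark matches to the κB consensus, on either strand. They lie at chr12:55492648-55492797 (minus strand, *Nfkbia*), chr11:23770970-23771119 (minus strand, *Rel*), chr17:45555550-45555699 (plus strand, *Nfkbie*) and chr10:19015411-19015560 (minus strand, *Tnfaip3*).
Nfkbia: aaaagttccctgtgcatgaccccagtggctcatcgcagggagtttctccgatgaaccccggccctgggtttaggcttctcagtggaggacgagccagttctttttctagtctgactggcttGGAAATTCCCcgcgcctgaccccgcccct
Rel: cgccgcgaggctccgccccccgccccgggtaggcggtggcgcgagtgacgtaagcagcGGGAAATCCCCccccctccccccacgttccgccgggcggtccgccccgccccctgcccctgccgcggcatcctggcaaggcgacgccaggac
Nfkbie: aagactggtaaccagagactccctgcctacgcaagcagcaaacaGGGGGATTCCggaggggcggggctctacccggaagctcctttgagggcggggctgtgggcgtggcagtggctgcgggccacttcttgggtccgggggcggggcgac
Tnfaip3: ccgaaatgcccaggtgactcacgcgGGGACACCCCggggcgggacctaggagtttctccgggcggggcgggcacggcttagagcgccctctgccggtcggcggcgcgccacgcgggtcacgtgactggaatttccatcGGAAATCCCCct

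In *Nfkbia* the match begins 29 bases before the start, and in *Nfkbie* 106 bases before it. *Rel* has 2 overlapping matches from 92 bases before the start, and *Tnfaip3* has matches 125 and 12 bases before the start shown. The window of another *Tnfaip3* start site, not shown, holds 0 matches. RefSeq promoter windows of 300 bases (250 before and 50 after the start) were held for 7 of the 10 genes, all but *Nfkb1*, *Relb* and *Nfkbiz*. A match was found for 6 of these 7 genes, the exception being *Rela*, while 9.55% of 27025 genes and 8.46% of all 32851 windows hold one. A gene with several windows was counted if any of them held a match. These matches describe the letters of the windows, and no binding was measured.

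Total counts ran from 32757389 to 41375925 per sample, so that 3 counts correspond to 0.0725 to 0.0931 CPM, the count scaled to library size. CPM values below are scaled by TMM factors, and levels of different genes are compared only as RPKM, which divides by exon length. Neutrophil genes were present in every sample. *Csf3r*, the G-CSF receptor, lay at 851.5 to 1106 CPM, and *Ly6g*, which encodes the surface protein Ly6G, at 7.54 to 21.4 CPM. Nothing in the labels says whether the samples of a group came from separate animals or cultures, so p-values measure only the spread between these samples. The 14 neutrophil markers summed to 53390 to 65640 CPM with PBS and 43500 to 48990 CPM with Tβ-MCA, and 5 of them, *Ly6g* among them, were lower with Tβ-MCA at an adjusted p under 0.05. Tβ-MCA replicate 5 lay nearer to PBS than replicates 3 and 4 in several marker lists.

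In control neutrophils, *Nfkbia*, which encodes IκBα, the main cytoplasmic inhibitor, was the most abundant of the 10 transcripts at 262.4 ± 8.51 RPKM (SD, n = 3), above 99.4% of all genes. *Rela*, the p65 subunit with a transactivation domain, followed at 52.8 ± 2.07 RPKM, and *Nfkb2*, which encodes the p100 precursor of p52, at 20.2 ± 0.63 RPKM. Then came *Tnfaip3*, encoding the ubiquitin-editing enzyme A20, at 14.3 ± 1.54 RPKM and *Nfkbiz*, encoding the nuclear IκBζ, at 12.8 ± 0.43 RPKM, whose sample ranges overlapped. *Nfkb1*, which encodes the p105 precursor of p50, had 9.94 ± 0.57 RPKM. *Nfkbie* (IκBε, a cytoplasmic inhibitor) and *Bcl3* (a nuclear IκB protein that binds p50 and p52) had 7.60 ± 0.24 and 6.75 ± 0.77 RPKM and overlapped. *Rel* (c-Rel) and *Relb* were lowest, at 5.57 ± 0.46 and 4.79 ± 0.49 RPKM, and also overlapped. All other neighbours in this order had ranges that did not overlap.

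Of the summed RPKM of the 5 subunits in control samples, *Rela* made up 56.6% ± 1.65, *Nfkb2* 21.7% ± 0.89, *Nfkb1* 10.7% ± 0.57, *Rel* 5.97% ± 0.55 and *Relb* 5.14% ± 0.56 (SD, n = 3). The RPKM of *Nfkbia* over that sum was 2.81 ± 0.08 with PBS, 2.55 ± 0.20 with TCA, 2.38 ± 0.09 with Tβ-MCA and 2.52 ± 0.09 with GCA. The sum itself lay between 91.2 ± 2.16 (TCA) and 94.8 ± 2.63 RPKM (Tβ-MCA). Neither quantity was tested.

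The question of the main comparison was which of these genes differ in neutrophils given a bile acid from those given PBS. With Tβ-MCA, 2 IκB genes fell, *Nfkbiz* by 22.7% and *Nfkbia* by 16.8%, and no subunit passed the test. *Rel* and *Nfkbie* were higher in all 3 Tβ-MCA samples than in any control sample, without passing the test. Samples of these groups did not overlap, in either direction, for 5 of the 10 genes and for 27% of all genes tested. *Rela* and *Nfkb1* lay within a few percent of control. With TCA and with GCA no member passed the test, nor did any other gene. Counts of all 12 samples were fitted together by quasi-likelihood in edgeR, p-values were adjusted over all 16761 genes by the Benjamini-Hochberg method, and a gene is called at an adjusted p under 0.05.

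**Figure D1:**
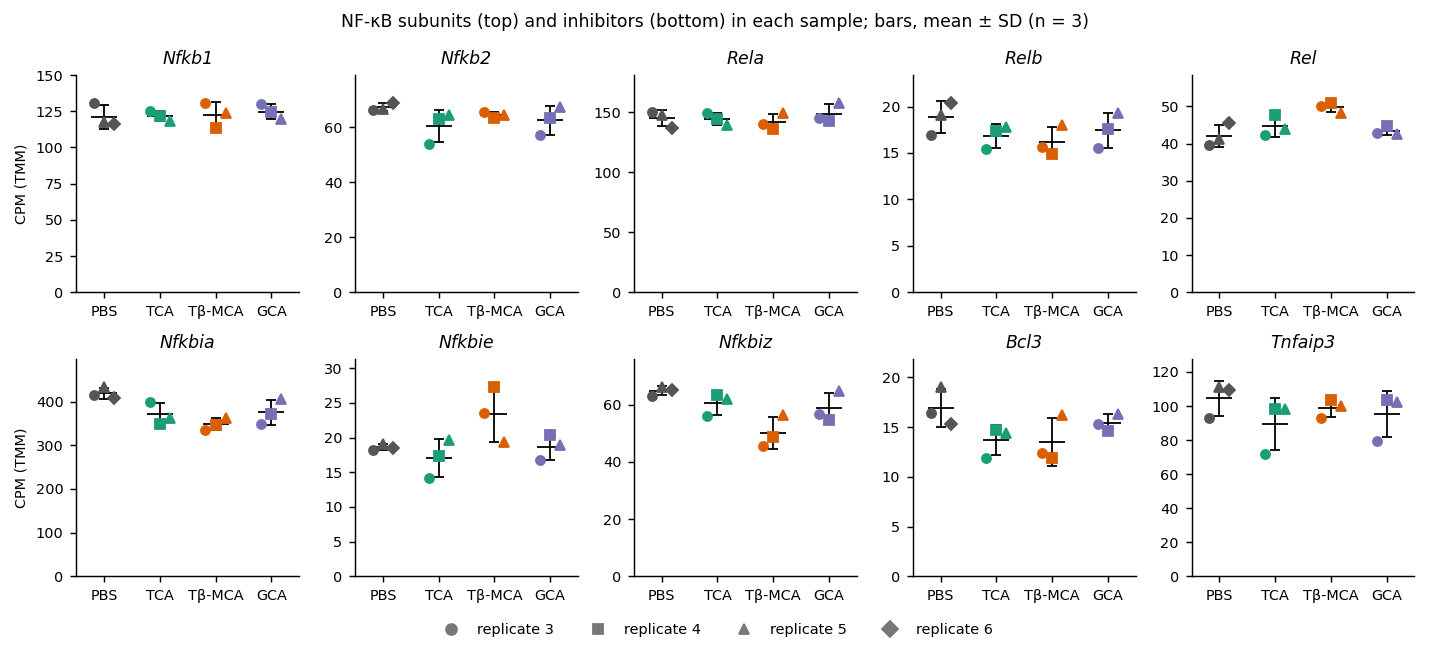
TMM-scaled CPM (y axis, from 0) of each gene in each of the 12 samples, by group, with symbols for the replicate number and black bars for the mean ± SD (n = 3). All 9 bile acid samples lie below the lowest control sample for *Nfkbia*, and the 3 Tβ-MCA samples lie above every control sample for *Rel* and *Nfkbie*.

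Among the subunits, *Rel* encodes a transactivating subunit known for roles in lymphocytes and myeloid cells. It had 39.5, 41.3 and 45.4 CPM with PBS (replicates 3, 5 and 6) and 50.2, 50.9 and 48.3 CPM with Tβ-MCA (replicates 3, 4 and 5). The groups did not overlap. The log2 fold change was 0.24 (SE 0.07, 95% confidence interval 0.09 to 0.40), or 18.3% higher, with an edgeR adjusted p of 0.0527, just outside the threshold. *Rel* had 42.2, 47.7 and 43.9 CPM with TCA and 42.9, 44.8 and 42.6 CPM with GCA, and 1 TCA sample lay above the highest control.

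*Rela* had 150.4, 147.8 and 137.3 CPM with PBS and 140.4, 135.8 and 149.6 CPM with Tβ-MCA, and the groups overlapped. The log2 fold change was -0.03 (95% interval -0.17 to 0.10, edgeR adjusted p = 0.804). *Nfkb1* likewise overlapped, with 130.8, 117.3 and 115.9 CPM against 130.5, 113.4 and 123.6 CPM, and a log2 fold change of 0.01 (95% interval -0.13 to 0.16, edgeR adjusted p = 0.932).

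*Nfkb2* had 66.2, 66.6 and 68.9 CPM with PBS and 65.5, 63.4 and 64.4 CPM with Tβ-MCA. All Tβ-MCA samples were lower, by a margin that is small beside the interval of the log2 fold change (-0.23 to 0.10, edgeR adjusted p = 0.676). *Relb*, the partner of p52 in the non-canonical pathway, had 17.0, 19.1 and 20.4 CPM with PBS and 15.7, 14.9 and 18.04 CPM with Tβ-MCA, which overlapped. Its log2 fold change was -0.22 (SE 0.11, edgeR adjusted p = 0.232). *Nfkb2* shares exon sequence with *Psd* on the other strand, and the strand setting of the counting is not given in the sources used here, so its counts could include reads of that gene.

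Among the IκB genes, *Nfkbia* had 414.3, 433.3 and 408.8 CPM with PBS and 335.6, 346.9 and 363.2 CPM with Tβ-MCA. The groups did not overlap, and every Tβ-MCA sample lay well below the lowest control. The log2 fold change was -0.26 (SE 0.07, 95% interval -0.41 to -0.12, edgeR adjusted p = 0.0347). It had 399.7, 348.9 and 362.9 CPM with TCA and 348.6, 371.9 and 405.7 CPM with GCA. These samples too lay below every control sample, TCA replicate 3 and GCA replicate 5 by a narrow margin. The log2 fold changes were -0.18 with TCA and -0.16 with GCA, with unadjusted edgeR p of 0.0226 and 0.0387 and adjusted p of 1 and 0.999 by the same test. The 3 comparisons share the 3 control samples and so are not independent.

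*Nfkbiz* encodes a nuclear IκB protein that helps to induce secondary NF-κB targets such as *Lcn2*. It had 63.1, 66.2 and 65.2 CPM with PBS and 45.5, 48.6 and 56.2 CPM with Tβ-MCA. The groups did not overlap, and replicate 5 was the Tβ-MCA sample nearest to control. The log2 fold change was -0.37 (SE 0.09, 95% interval -0.56 to -0.19, edgeR adjusted p = 0.0266). With each single sample left out in turn it ranged from -0.46, without replicate 5, to -0.31. With TCA it had 55.9, 63.3 and 62.1 CPM and with GCA 56.8, 54.6 and 64.9 CPM, ranges that reached those of the controls.

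*Nfkbie* had 18.2, 19.1 and 18.5 CPM with PBS and 23.6, 27.3 and 19.3 CPM with Tβ-MCA. The groups did not overlap, but replicate 5 exceeded the highest control sample only narrowly. The log2 fold change was 0.33 (SE 0.13, 95% interval 0.05 to 0.60, edgeR adjusted p = 0.129), and 0.45 without replicate 5 (edgeR adjusted p = 0.0197). With each single sample left out in turn it ranged from 0.20 to 0.45, and *Nfkbie* was called only without replicate 5. *Bcl3* had 16.4, 19.0 and 15.3 CPM with PBS and 12.4, 11.9 and 16.3 CPM with Tβ-MCA, where replicate 5 again lay among the controls. Its log2 fold change was -0.32 (SE 0.13, edgeR adjusted p = 0.131), and -0.48 without replicate 5 (edgeR adjusted p = 0.0122). With each single sample left out in turn it ranged from -0.48 to -0.23, and *Bcl3* too was called only without replicate 5. *Bcl3* shares exon sequence with *Gm16175* on the other strand, with the same limit as *Nfkb2*.

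*Tnfaip3*, whose product A20 removes and adds ubiquitin chains to shut down IKK activation, had 92.7, 111.2 and 109.6 CPM with PBS and 93.2, 103.6 and 100 CPM with Tβ-MCA. The groups overlapped, with a log2 fold change of -0.08 (95% interval -0.35 to 0.19, edgeR adjusted p = 0.759). With TCA it had 72.0, 98.3 and 98.2 CPM and with GCA 79.5, 103.6 and 102.1 CPM. In all 4 groups replicate 3 was the lowest sample.

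Set against all genes, the 2 of 10 members called with Tβ-MCA compare with 7.62% of the genes tested (745 higher and 533 lower, or 1013 and 395 when scaled by total library size). The members were chosen with earlier results of these data known, so such shares are a description. At an unadjusted edgeR p under 0.05 there were 5 members, *Rel*, *Nfkbia*, *Nfkbie*, *Nfkbiz* and *Bcl3*, against 24.9% of all genes. The samples did not overlap for 5 members, *Nfkb2* in place of *Bcl3*, against 27% of all genes. A rule with the cut-offs of the study for p and for a 2-fold change, applied here to the unadjusted p under 0.05, took in 0 members against 2.95% of genes, and the largest change of a member was 1.29-fold. The median log2 fold change of the 10 members was -0.07, with 3 above and 7 below 0, beside 0.00 for all genes tested.

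For TCA against PBS, edgeR called 0 members and 0% of all genes, and DESeq2 also called 0 members. At an unadjusted p under 0.05 there were 2 members, *Nfkbia* and *Bcl3*, both lower, against 3.26% of all genes. *Bcl3* had 11.9, 14.7 and 14.4 CPM with TCA, below every control sample, with a log2 fold change of -0.30 (95% interval -0.57 to -0.03). The samples did not overlap for 3 members, *Nfkbia*, *Nfkb2* and *Bcl3*, against 9.67% of all genes, and 0 members reached 2-fold with an unadjusted p under 0.05, against 0.465%. For GCA against PBS, edgeR called 0 members and 0% of all genes, and DESeq2 also called 0 members. *Nfkbia* was the 1 member at an unadjusted p under 0.05, against 3.53% of genes, and the 1 member whose samples did not overlap, against 9.55%. By the 2-fold rule there were 0 members against 0.531%.

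**Figure D2:**
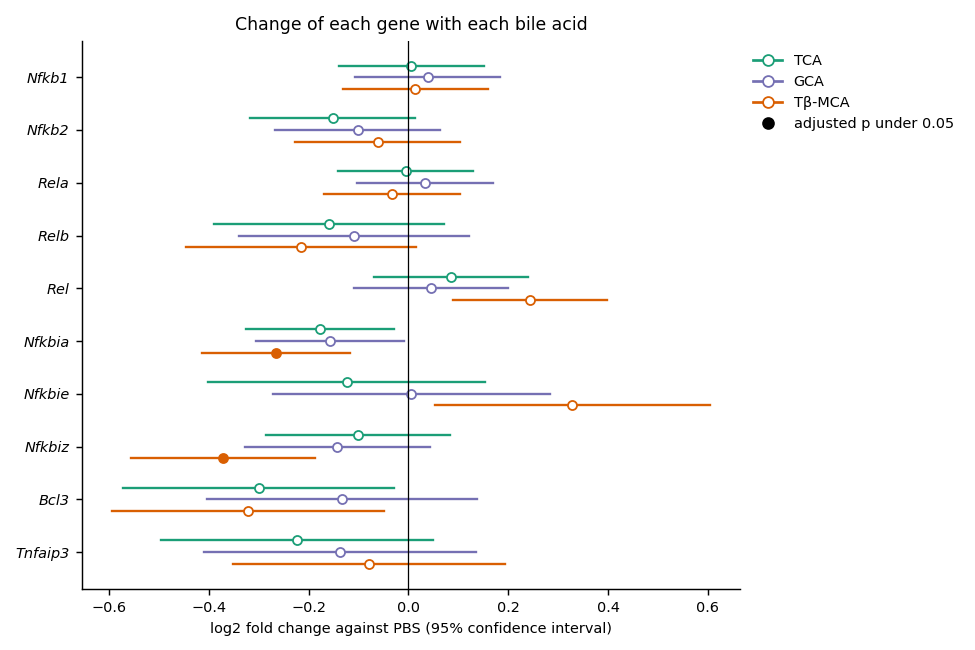
Log2 fold change against PBS (x axis) of each gene with TCA, GCA and Tβ-MCA, with 95% confidence intervals and filled points where the edgeR adjusted p was under 0.05. Only *Nfkbia* and *Nfkbiz* with Tβ-MCA are filled, and the intervals of *Rel* and *Nfkbie* with Tβ-MCA lie above 0.

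The 2 calls depended on which samples were kept. Without Tβ-MCA replicate 5 both were kept and 5 members were called (*Rel*, *Nfkbia*, *Nfkbie*, *Nfkbiz* and *Bcl3*). Calls rose over all genes too, to 3076 of 17131 (18%). Leaving out any one of PBS replicates 3, 5 and 6 or Tβ-MCA replicates 3 and 4 left 0 members called. Calls fell over all genes as well, to 168 of 17124 (0.981%) without PBS replicate 6 and to 0 without each of the others. The adjusted p of *Nfkbiz* ranged from 0.00114 to 0.129 over 15 alternatives to the edgeR fit and was under the threshold in 7, and that of *Nfkbia* ranged from 0.00744 to 0.147 and was under it in 6. Their log2 fold changes stayed between -0.46 and -0.30 and between -0.30 and -0.22. *Rel* was called in 4 of 15 (adjusted p 0.0252 to 0.188, log2 fold change 0.20 to 0.30).

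**Figure D3:**
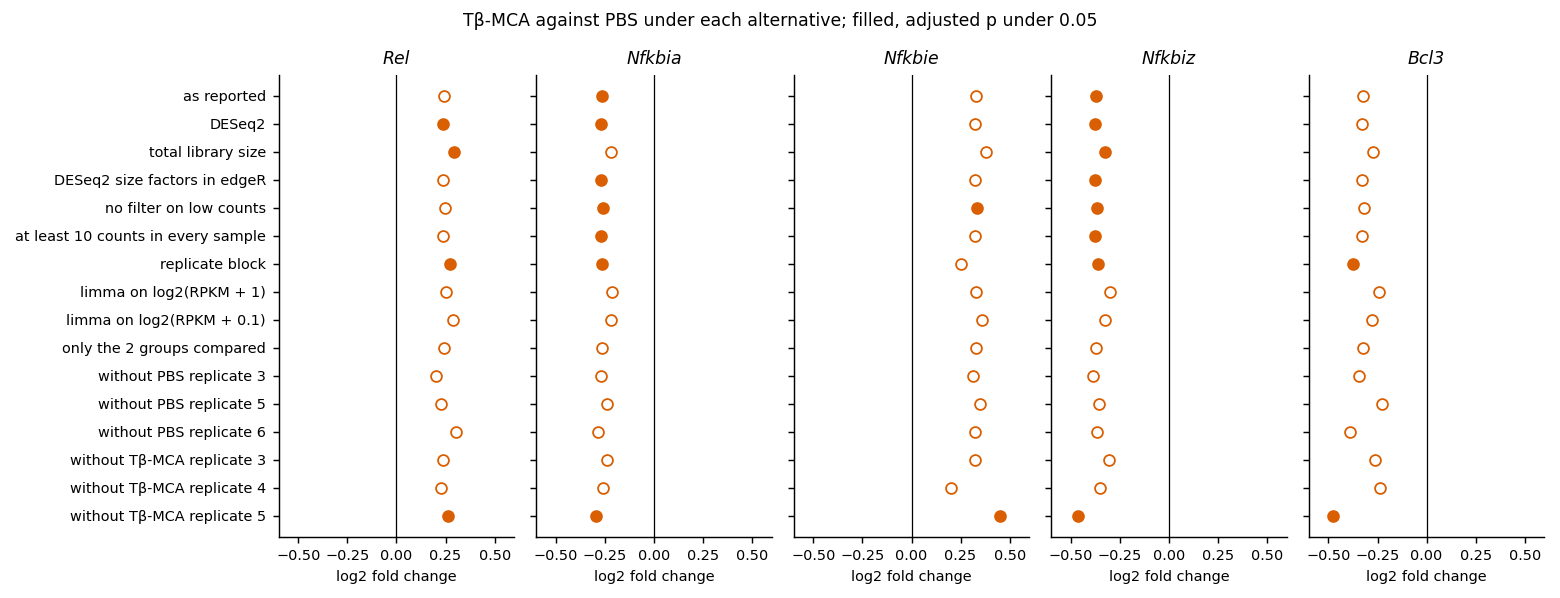
Log2 fold change for Tβ-MCA against PBS (x axis) of the 5 genes with an unadjusted p under 0.05, for the reported fit and 15 alternatives (rows), filled where the adjusted p was under 0.05. The direction is the same in every row for these 5 genes, and *Nfkbiz* is filled in 7 and *Nfkbia* in 6 of the 15 alternatives.

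Several lists chosen as markers of other cells had lower sums with Tβ-MCA than with PBS. Which cells held this RNA, neutrophils or others, was not measured. The 12 monocyte and macrophage markers summed to 6102 to 6403 CPM with PBS and to 2794, 2926 and 4740 CPM in Tβ-MCA replicates 3, 4 and 5. All 12 were lower with Tβ-MCA, and 2 were called, *Lyz2* and *Ly6c2*. *Lyz2* alone made up most of the sum, at 4322 to 4811 CPM with PBS and 2103 to 3294 CPM with Tβ-MCA. *Ccr2* had 37.3 to 51.2 and 2.03 to 29.2 CPM (edgeR adjusted p = 0.206). *Csf1r* had 215.5 to 271 and 145.6 to 235.1 CPM (edgeR adjusted p = 0.241). The 5 neutrophil progenitor markers summed to 263.2 to 269.5 CPM with PBS and 47.2 to 203.2 CPM with Tβ-MCA, and all 5 were lower without being called. B cell markers summed to 8.28 to 13.97 CPM with PBS and 4.16 to 6.93 CPM with Tβ-MCA, and eosinophil markers to 136.1 to 237.3 and 53.2 to 121.5 CPM. All 6 B cell and all 4 eosinophil markers were lower with Tβ-MCA, and 1 of each was called, *Cd79a* and *Siglecf* (edgeR adjusted p = 0.0326 for both). T and NK cell markers stayed at or under 3.79 CPM in all samples, with *Klrb1c* under 3 counts in each. Basophil and mast cell markers lay at 36.1 to 56.4 CPM with PBS and 36.3 to 49.4 CPM with Tβ-MCA, and erythroid markers at or under 3.01 CPM in all samples. In bulk samples fewer cells of a type and less RNA per cell cannot be told apart. The part of these markers in the changes of *Nfkbia*, *Nfkbiz* and the pathway genes described below was not tested.

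Tβ-MCA and TCA are both taurine conjugates and differ in their hydroxyl groups. Their doses differ by the labels and match by the methods of the study, so the values below cannot be taken as a comparison at matched dose. No member was called by edgeR, against 3.51% of all genes (372 higher and 216 lower, or 585 and 190 when scaled by total library size), and DESeq2 called 2, *Nfkbie* and *Nfkbiz*, against 9.68% of all genes by that tool. *Nfkbie* had 14.2, 17.4 and 19.6 CPM with TCA, 1 of them above the lowest Tβ-MCA sample, with a log2 difference of 0.45 (SE 0.13, 95% interval 0.18 to 0.73, edgeR adjusted p = 0.0616). *Nfkbiz* was lower with Tβ-MCA by 0.27 on the log2 scale (SE 0.09, edgeR adjusted p = 0.0862). Without Tβ-MCA replicate 5 both were called, at log2 differences of 0.57 and -0.36 (edgeR adjusted p = 0.00543 and 0.00925), beside 15.3% of all genes. Leaving out any one of TCA replicates 3, 4 and 5 or Tβ-MCA replicates 3 and 4 left 0 members and 0 genes called. In the fit of all samples, these 2 and *Rel* made 3 members at an unadjusted p under 0.05, against 22.2% of genes. *Rel* was the 1 member whose samples did not overlap, against 25.3%, and 0 members met the 2-fold rule, against 2.79%.

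TCA and GCA are taurine and glycine conjugates of the same bile acid, cholic acid, and were given at the same dose and time. All 10 genes overlapped between them. Neither edgeR nor DESeq2 called a member, and the call rates over all genes were 0% for edgeR, 2.46% at an unadjusted p under 0.05 (0 members), 8% for samples that did not overlap (0 members) and 0.442% by the 2-fold rule (0 members). The log2 differences, GCA minus TCA, lay between -0.04 (*Nfkbiz*) and 0.17 (*Bcl3*). Over the 10 genes, the 95% intervals reached from -0.23 (*Nfkbiz*) to 0.44 (*Bcl3*), which takes in differences of up to 1.36-fold.

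The rest of the pathway was described with 5 lists of 87 genes, of which 84 were tested. These lists were chosen with earlier results of these data known, so their shares of calls are a description, and no enrichment was tested. With Tβ-MCA, edgeR called 12 of the 84 (14.3%, against 7.62% of all genes), 4 higher and 8 lower. The median log2 fold change of the 84 was -0.06. Most of these calls, 9 of 37 tested, were among the NF-κB target genes of myeloid cells, with 2 higher and 7 lower and a median log2 fold change of -0.22. One of the 9, *Lcn2*, is also among the neutrophil markers.

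In the target list, *Ccl3*, a chemokine that draws leukocytes, had 92.1, 112.9 and 93.6 CPM with PBS and 63.9, 65.5 and 79.6 CPM with Tβ-MCA (log2 fold change -0.51, edgeR adjusted p = 0.0208). *Saa3*, an acute-phase protein, had 131.1, 118.2 and 106.5 CPM against 85.4, 70.6 and 74.4 CPM (log2 fold change -0.63, edgeR adjusted p = 0.0298). Neither gene overlapped between the groups. *Vcam1*, an adhesion molecule, fell from 13.5 ± 1.08 to 6.11 ± 2.73 CPM (SD, n = 3 each, log2 fold change -1.14, edgeR adjusted p = 0.0266), and *Marcksl1* fell from 244.9 ± 10.9 to 147.0 ± 38.5 CPM (log2 fold change -0.74, edgeR adjusted p = 0.029). For both, replicate 5 was the highest Tβ-MCA sample, at 9.23 and 190.0 CPM, and without it the log2 fold changes were -1.57 and -0.96. The other 5 called were *Ccl4*, *Lcn2* and *Cxcl1*, lower, and *Cd40* and *Gadd45b*, higher. Mean levels with PBS and Tβ-MCA were low for *Cxcl1* (1.01 and 0.369 CPM), *Cd40* (1.07 and 1.97 CPM) and *Ccl4* (3.67 and 1.99 CPM). They were 1882 and 1542 CPM for *Lcn2* and 71.6 and 119.7 CPM for *Gadd45b*. *Cxcl1* and *Gadd45b* only just passed (edgeR adjusted p = 0.0484 and 0.0487).

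Upstream of NF-κB, 0 of 11 genes of the IKK complex and its kinases were called by edgeR or DESeq2, with 2 at an unadjusted p under 0.05 and a median log2 fold change of 0.01. The 3 IκB family genes outside the 10 also had 0 calls by either tool and 1 at an unadjusted p under 0.05. Among 23 receptor adaptors and ubiquitin ligases, 2 were called, both higher, a share of 8.7% that is close to the 7.62% of all genes. *Traf5*, an adaptor of TNF receptor family members, rose from 7.21 ± 1.13 to 11.9 ± 2.41 CPM (log2 fold change 0.72, edgeR adjusted p = 0.0219), and *Malt1*, a protease of the CARD adaptor complex, rose from 48.3 ± 4.12 to 61.5 ± 3.68 CPM (log2 fold change 0.35, edgeR adjusted p = 0.032). Of 10 partners of A20 and deubiquitinases 1 was called (10%, also close to the share of all genes). This was *Otud7b*, which fell from 196.0 ± 5.81 to 157.3 ± 20.7 CPM (log2 fold change -0.32, edgeR adjusted p = 0.0322).

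Without Tβ-MCA replicate 5, 25 of the pathway genes were called, beside 3076 of all 17131 genes (18%), and without PBS replicate 6, 2 were called, beside 168 of 17124 (0.981%). Without PBS replicate 3, PBS replicate 5, Tβ-MCA replicate 3 or Tβ-MCA replicate 4, 0 were called. With TCA edgeR called 0 of the 84 (6 at an unadjusted p under 0.05, and 1 by DESeq2), and with GCA 0 (5 and 0).

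**Figure D4:**
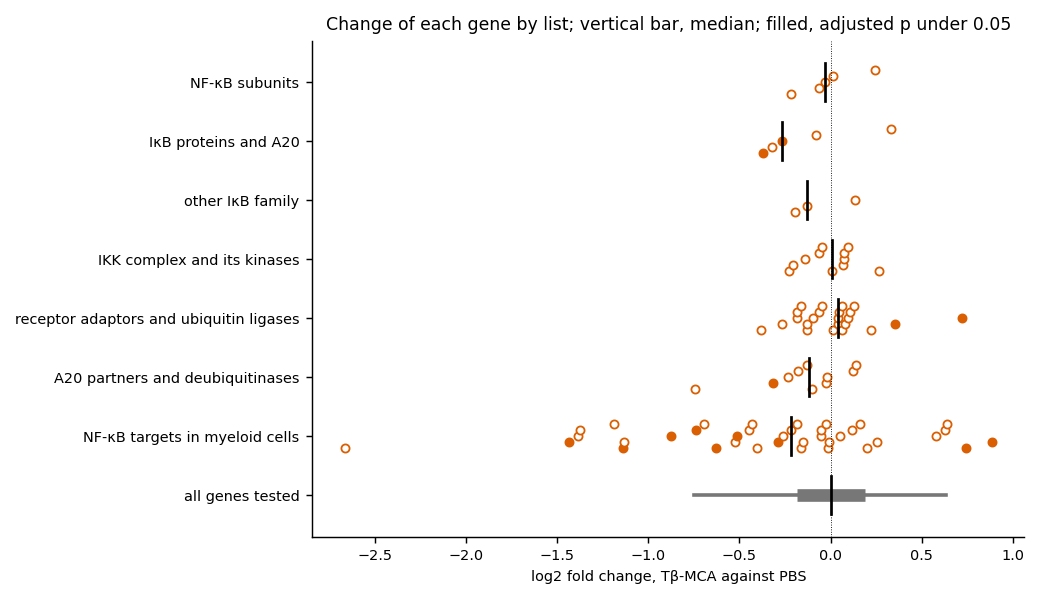
Log2 fold change for Tβ-MCA against PBS (x axis) of each tested gene in 7 lists, with a vertical bar at the median and filled points where the edgeR adjusted p was under 0.05. The lowest row gives all genes tested (thin line, 5th to 95th percentile from -0.75 to 0.63; thick line, 25th to 75th). The target genes spread widest, with 9 filled points, and some of them had low levels, such as *Cxcl1* (mean 1.01 CPM with PBS and 0.369 CPM with Tβ-MCA).

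Across the 12 samples, the genes whose log2 CPM was most like each member were found by Pearson's r, as a description over samples that share group and library effects. They were picked as the highest among 16761 genes, so part of the height of r comes from that choice. *Nfkbiz* was closest to *Pilra* (r = 0.981), *Gngt2* and *Rnf149* (both 0.972), and *Tnfaip3* to *Sod2* (r = 0.979), *Gm28914* (0.946) and *Ncaph2* (0.943). *Rel* was closest to *Mapk9* (r = 0.958), *Pcmtd1* (0.935) and *Gm11632* (0.933), and *Nfkbia* to *Abtb1* (r = 0.945), *Ddx41* (0.897) and *Reep5* (0.881). *Nfkbie* was closest to *Ostm1* (r = 0.951), *Mblac2* (0.948) and *Dbn1* (0.946). The other 5 had highest values between 0.91 (*Relb* with *Snrpa1*) and 0.946 (*Nfkb1* with *Itga6*). Between members, *Nfkb2* and *Tnfaip3* were most alike (r = 0.886), and *Rel* and *Nfkbia* ran most opposite (r = -0.76).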

How the data were processed

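The authors trimmed reads with Trimmomatic 0.36, aligned them with STAR 2.5.3a to GRCm38 and counted them per gene with featureCounts (Subread 1.5.1), per the labels; the strand setting is not given in the sources used here. The deposited counts per gene and the deposited RPKM values (counts per exon length and total) were used as they stand. Columns named GA were taken as the GCA group, from the design text. The 10 members and all lists were chosen with earlier results of these data known. Counts were tested with edgeR 4.0.16 (TMM, filterByExpr, robust quasi-likelihood fit, all 12 samples, Benjamini-Hochberg adjustment) under R 4.3.3 and the script was tested on simulated data. Alternatives were DESeq2 1.42.0, other scalings and filters, limma 3.58.1 on log2(RPKM + 1) and log2(RPKM + 0.1), the 2 groups alone, the replicate block and each sample left out. All members were named, with up to 4 called genes per pathway list by lowest p and the 3 genes most like each member. The other called targets and *Lcn2* were named after their values were seen. Intervals and floors cover counting error or the spread between samples only.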

Additional observations from a re-analysis of the deposited data

How the results depend on the processing

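Of 50 log2 fold changes (10 members in 5 comparisons), each under 15 alternatives, 674 values kept their direction and side of the threshold, 16 passed it newly, 17 no longer passed it and 43 changed sign, all of these at most 0.0685 from 0 in the alternative. For Tβ-MCA against PBS (2 members, 1278 genes and 12 pathway genes called), DESeq2 called 2103 genes, no filter 2406 genes and 20 pathway genes, limma 0 members with 6 pathway genes (pseudocount 1) or 5 (pseudocount 0.1, 803 genes), the 2 groups alone 0 of each, and the 2-fold rule 494 genes and 0 members. Leaving out one sample gave 0 to 5 members, 0 to 3076 genes and 0 to 25 pathway genes. For Tβ-MCA against TCA (0 members, 588 genes), DESeq2 called 2 members and 1623 genes, no filter 2 and 2077, limma 0 genes with either pseudocount, the 2 groups alone 72 genes, and leaving out one sample 0 to 2 members and 0 to 2619 genes. The 0 calls of TCA against PBS became 78 by the 2-fold rule, 37 without a filter and 1 by DESeq2, those of GCA against PBS 89 and 36, and those of GCA against TCA 74 and 42 by the first and second of these. The cause was not tested.

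Signs changed for *Rela* with Tβ-MCA against PBS (0.0155 by total library size, 0.01508 and 0.01534 by limma) and against TCA (0.01685, 0.01589, 0.01615), and for *Bcl3* with Tβ-MCA against TCA (0.01971, 0.01364, 0.01531). Leaving out one sample, ranges that crossed 0 were, for Tβ-MCA against PBS, *Nfkb1* -0.034 to 0.0716; for TCA against PBS, *Nfkb1* -0.0266 to 0.0615 and *Rela* -0.0443 to 0.0193; for GCA against PBS, *Rela* -0.012 to 0.0615 and *Nfkbie* -0.0619 to 0.0805. For Tβ-MCA against TCA they were *Nfkb1* -0.0396 to 0.0612, *Rela* -0.0673 to 0.00375, *Relb* -0.141 to 0.000697 and *Bcl3* -0.179 to 0.0641. For GCA against TCA they were *Nfkb2* -0.026 to 0.113, *Rela* -0.00647 to 0.0669, *Relb* -0.029 to 0.129, *Rel* -0.0773 to 0.0164, *Nfkbia* -0.0404 to 0.0769, *Nfkbiz* -0.119 to 0.00929 and *Tnfaip3* -0.0476 to 0.2.

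With the replicate block, 4 members were called for Tβ-MCA against PBS (*Rel* and *Bcl3* added) beside 1498 genes (8.94% of those tested), 2 members (*Nfkbie* and *Nfkbiz*) and 2322 genes (13.9%) for Tβ-MCA against TCA and 3 genes for TCA against PBS; *Nfkb1* with TCA became -0.00631 and *Nfkbie* with GCA -0.06848. Deviations of the 15 same-numbered pairs correlated at 0.0597 to 0.326 (median 0.197), with 3 at or under 0.1, and those of 39 differently numbered pairs at -0.268 to 0.154 (median -0.132). The 6 pairs numbered 3 lay at 0.197 to 0.326, and 10 of 11 samples were closest to one of their own number, a hint of pairing from the data. Since not every pair passed 0.1 and the labels do not say what a number marks, the numbers were not taken to pair the samples.

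With 3 samples a group the 95% interval for Tβ-MCA against PBS was -0.45 to 0.02 for *Relb*, -0.35 to 0.19 for *Tnfaip3* and -0.13 to 0.16 for *Nfkb1*.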

Other observations

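*Tnfaip3* was lowest in the sample numbered 3 in all 4 groups. Of the 16761 genes tested, 1393 (8.31%) shared that pattern and 1376 (8.21%) were highest in that sample in every group. *Nfkb2*, *Relb*, *Nfkbie* and *Nfkbiz* were lowest there in 3 of 4 groups, and *Nfkb1* and *Rela* in 0. *Sod2*, a mitochondrial superoxide dismutase on the target list, had 108.2 to 155.9 CPM with TCA, 141.8 to 186.5 CPM with PBS, 152.9 to 169.6 CPM with Tβ-MCA and 126.0 to 164.9 CPM with GCA. *Ptgs2*, which encodes cyclooxygenase-2 and is also on the target list, was called lower with Tβ-MCA than with TCA (log2 difference -2.08, SE 0.55, edgeR adjusted p = 0.0497) at levels of 0.237 ± 0.129 and 1.02 ± 0.29 CPM (SD, n = 3).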
